A study of Mus musculus with 21 samples.

Results

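Committed erythroid progenitors (CFUe, cells that form erythroid colonies) were set against committed myeloid progenitors (GMP, granulocyte-macrophage progenitors). The samples were chosen by title, as the 3 arrays titled CFUe and the 3 titled GMP, 6 of the 21 arrays of the series. All were sorted from bone marrow of C57BL/6 mice, with no treatment or age in the labels. Nor do the labels say whether replicates came from separate animals. Every p-value thus rests on the spread between arrays within fractions, estimated over all 21 arrays of the series, which may be technical. By label both fractions were lin- and carried ckit and sca1. GMP were then CD150- and FCGrI/II+, and CFUe were negative for CD150, CD105 and FCGrI/II. That CFUe gate reads the same as the gate given for PreGM, the earlier myeloid fraction, which together with PreMegE, the CD150+ earlier erythroid fraction, served below to place the differences in time. In bulk samples of this kind, fewer cells of a type and less RNA per cell cannot be told apart.

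Transcripts of the sorting antigens matched the labels in part. Fcgr3 and Fcgr2b, which encode the receptors used in the gate, passed background clearly on 1 CFUe array and on every GMP array, with differences in level of -8.94 and -8.71 on the log2 scale. As genes of the gate they are no finding. Ly6a, the Sca1 gene, was at -6.10, -6.82 and -4.47 in CFUe, above background on 1 of 3 arrays, and at 2.11, 2.12 and 2.17 in GMP, so the CFUe arrays went against the sca1+ label. Eng, the CD105 gene, was measured in both fractions and was higher in CFUe, at 2.36, 2.52 and 2.57 against 0.11, 0.36 and 0.19 in GMP, which goes against the CD105- label. Levels here and below are log2 signals minus the 75th percentile of the array, so that 0 is the 75th percentile, and a difference is CFUe minus GMP. The cell type markers followed the titles. Of 13 erythroid markers measured, 13 were higher in CFUe. Medians over these markers were 3.76, 3.98 and 4.04 on the CFUe arrays and -3.50, -3.59 and -3.19 on the GMP arrays. Of 11 GMP markers measured 11 were higher in GMP, but the gate gene Fcgr3 is among them and its call is no finding.

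One array of each fraction stood apart. CFUe replicate 3 carried the Y-linked transcript Ddx3y at 1.44 and Xist at -4.46. CFUe replicates 1 and 2 had Ddx3y at -6.14 and -7.24 and Xist at 4.94 and 5.10. All GMP arrays likewise had Xist, at 5.01, 5.04 and 5.14. CFUe replicate 3 was thus not a repeat of the same sample as replicates 1 and 2. Whether the other arrays came from separate animals is not known. On CFUe replicate 3, 242 of the genes tested lay more than 2 log2 units above the mean of the other CFUe arrays and 75 lay below it by as much. Its median over the GMP markers was -1.26 against -3.79 and -3.78. GMP replicate 3 had 425 genes more than 2 above the other GMP arrays and 0 below, and 76.5% of its probes were well above background, against 62.3% and 64.5% in GMP and 56.4% to 63.6% in CFUe. It was also the 1 GMP array on the slide series that held all 3 CFUe arrays. A slide series here is a grouping of slides by digits of their barcodes, which the labels do not name as a batch. Log2 signals correlated across probes, which are not independent, between 0.978 and 0.985 within CFUe, between 0.967 and 0.990 within GMP and between 0.902 and 0.929 across the fractions.

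As background, erythroid and granulocyte-macrophage progenitors descend from shared multipotent cells. The factors Gata1 and Klf1 drive the genes of hemoglobin, the red cell membrane and the response to erythropoietin, while PU.1 (the product of Spi1), the C/EBP proteins and Irf8 drive the genes of granules, phagocytosis and myeloid growth factor receptors. Gata1 and PU.1 bind and oppose each other, and the balance between such factors is a classical model of how a progenitor commits to a lineage.

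The fractions differed in 27.2% of the genes tested, with erythroid membrane and enzyme genes at one end and granule genes at the other. A gene is called here when its limma adjusted p was under 0.05 and the fractions differed at least 2-fold. Of 14281 genes tested with 1 probe each, 3881 were called, 1637 (11.5%) higher in CFUe and 2244 (15.7%) higher in GMP. By probe, 7687 of 29532 (26.0%) were called, 3428 (11.6%) higher and 4259 (14.4%) lower. Arrays of the fractions did not overlap for 9033 genes (63.3%), so that separation alone is the common case. A gene was tested if it was well above background on every array of any 1 fraction of the series, so that some genes passed through the fraction where they are high, and 523 genes called higher in GMP were above background on no CFUe array. The median difference over all genes was 0.21. Scaled to the spike-in probes instead, that median moved to -1.15 and the calls turned to 682 probes higher and 17006 lower, so all differences are relative to the array's 75th percentile. With GMP replicate 3 as the only GMP array, the within-series comparison, 7132 probes were called (2400 higher and 4732 lower), and without it 8483 (4390 and 4093), which turns the larger side. Without CFUe replicate 3, 7835 probes were called (3417 and 4418).

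**Figure D1:**
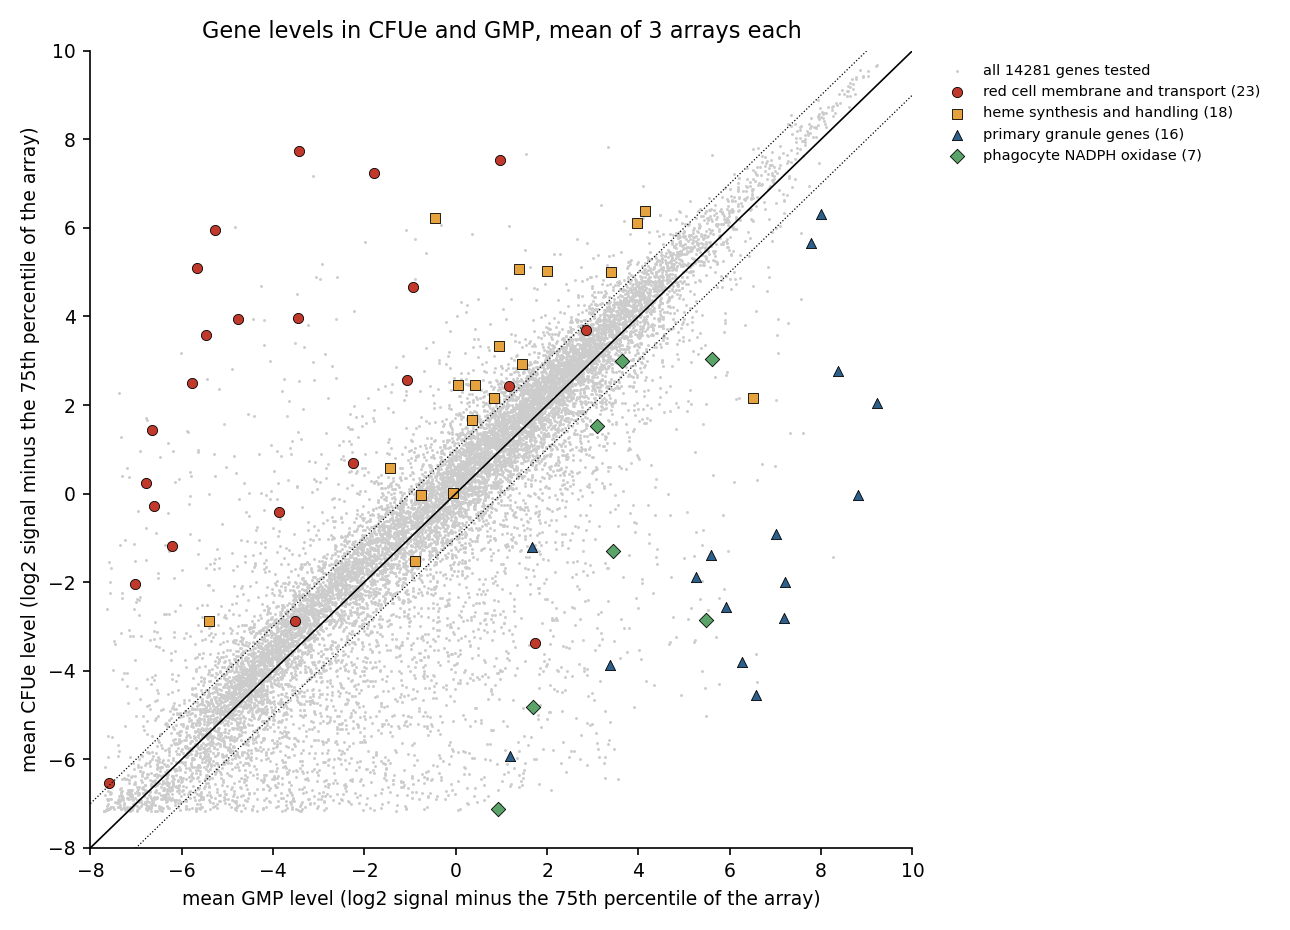
Mean level of each gene tested in GMP (x axis) and CFUe (y axis), both as log2 signal minus the 75th percentile of the array and as means of 3 arrays. The solid line is equality, the dotted lines 2-fold differences. Most red cell membrane and heme genes lie above the lines, and the primary granule genes and most NADPH oxidase genes lie below them.

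At the erythroid end of the ranking, among genes measured on all 6 arrays, stood Aqp1, the water channel of the red cell membrane, and Sphk1, which makes sphingosine 1-phosphate. Aqp1 was at 7.51, 7.72 and 7.97 in CFUe and at -3.50, -3.59 and -3.19 in GMP, a difference of 11.16 ± 0.29 (SE, limma adjusted p = 1.63e-14). Sphk1 was at 7.09, 7.36 and 7.09 against -3.01, -3.43 and -2.96, a difference of 10.31 ± 0.38. The arrays of the fractions were far from overlapping for both, while the sister kinase Sphk2 differed by 0.00 ± 0.12. Car1, a red cell carbonic anhydrase (9.03), and Ank1, the ankyrin that ties the membrane to spectrin (8.71), followed. Besides Klf1, Epor, Gfi1b and Kel, described below, the leading 15 held Mmp14, a membrane metalloproteinase (8.37), St3gal5, the GM3 ganglioside synthase (7.98), Myo1d, an unconventional myosin (7.95), Epdr1 (7.82), the sterol transporter gene Abcg4 (7.70), the neuropeptide S receptor gene Npsr1 (7.55) and Crip2 (7.48). St3gal5 was at 4.48, 4.55 and 4.50 in CFUe and at -3.42, -3.56 and -3.43 in GMP, a spread within each fraction that was small beside the difference.

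At the myeloid end, Hp, which encodes the hemoglobin-binding haptoglobin, was at -4.29, -4.73 and -2.41 in CFUe and at 6.32, 6.37 and 6.09 in GMP, a difference of -10.07 ± 0.41 (limma adjusted p = 2.86e-12). CFUe replicate 3 was the highest of the CFUe arrays for Hp, for Ms4a3 and for Cd34 alike. The 15 leading genes were otherwise the granule genes Prtn3 (-9.21), Ctsg (-8.84) and Nkg7 (-7.93), the protease inhibitor Serpinb1a (-8.50), the oxidase subunit Ncf4 (-8.32), the hexokinase Hk3 (-8.05) and surface proteins. Among the latter were Ms4a3 (-9.99), Ly6c2, a monocyte antigen (-9.69), the heparan sulfate proteoglycan Gpc1 (-8.57), Cd93 (-8.14), Cd34 (-8.03) and Cd52 (-7.92). The complement component C3 (-8.13) and the glutathione transferase Mgst2 (-7.74) completed the set. Probes for close copies such as Ly6c1 and Ly6c2 may share signal, which was not tested.

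Erythroid transcription factors were mostly higher in CFUe, by sizes that ran from over 8 log2 units down to nothing. Of 16 measured, 12 were higher, 1 was lower and 3 were not called, with a median difference of 1.74 (0.21 over all genes). Scaled to the spike-ins, 6 stayed higher, 3 were lower and the median was 0.38. Klf1, the erythroid Kruppel-like factor, was at 3.76, 3.98 and 4.04 in CFUe and at -4.63, -4.68 and -3.31 in GMP, a difference of 8.13 ± 0.41 (limma adjusted p = 3.66e-11). Gfi1b, a repressor needed for erythroid and megakaryocytic growth, was at 5.50, 5.70 and 5.84 against -1.95, -2.11 and -1.89, a difference of 7.66 ± 0.17. The fractions also stood wide apart for Gata1, at 3.04, 3.21 and 3.19 against -2.90, -3.17 and -2.54 (6.02 ± 0.24). Its partner Zfpm1, the FOG1 gene, differed by 4.88, Sox6 by 3.08 (above background on 1 GMP array) and Bcl11a, the repressor of fetal globin, by 2.30. Gata2, a relative of Gata1, differed by 1.54. Members of the Tal1 complex differed less (Tal1 itself was not analysed here). The scaffold Ldb1 (1.73) and the corepressor Cbfa2t3 (1.17) were higher in CFUe, Lmo2 differed by 0.75 and was not called, and Lyl1, at 4.47, 4.72 and 5.02 against 6.18, 6.25 and 5.98, was higher in GMP. Myb, a factor of all cycling progenitors, differed by 0.06 and Nfe2 by -0.67, neither called.

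Myeloid factors ran the other way. Of 23 measured, 15 were higher in GMP, 2 were higher in CFUe and 6 were not called, with a median of -2.13. Gfi1, the granulocytic relative of Gfi1b, was at -6.58, -7.20 and -3.53 in CFUe, above background on 1 array, and at 3.45, 3.45 and 3.47 in GMP. The difference of -9.23 ± 0.63 (limma adjusted p = 1.72e-09) was opposite in sign to that of Gfi1b. Irf8, the factor of monocytes and dendritic cells, was at -4.47, -4.47 and -0.99 against 5.21, 5.35 and 5.14 (-8.54), and Spi1 at -6.80, -6.34 and -4.94 against 0.70, 0.98 and 0.56 (-6.77, above background on 1 CFUe array). Cebpa was at -3.79, -3.97 and -2.26 against 2.61, 2.64 and 2.41 (-5.89). CFUe replicate 3 was the highest of the CFUe arrays for all of these, yet it stayed below every GMP array, and without it 14 of the 23 factors were still called lower. The other C/EBP genes differed less, Cebpd by -4.06 and Cebpb by -2.52, and Cebpg, at a difference of 0.82, was not called. Fli1 (-4.27), an ETS factor shared with megakaryocytes, Klf4 (-3.12), a monocyte factor, and Runx1 (-1.06) were higher in GMP. Those higher in CFUe were Egr1 (1.35), an immediate early gene at 5.49, 5.29 and 3.41 in CFUe, and Batf3 (1.09). Egr1 was not called without CFUe replicate 1, and Batf3 not without CFUe replicate 2 or GMP replicate 2. Nr4a1, at 2.93 and 2.74 but at -0.50 on CFUe replicate 3, was higher in GMP (-1.92) and was not called without that array or without GMP replicate 1 or 2.

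**Figure D2:**
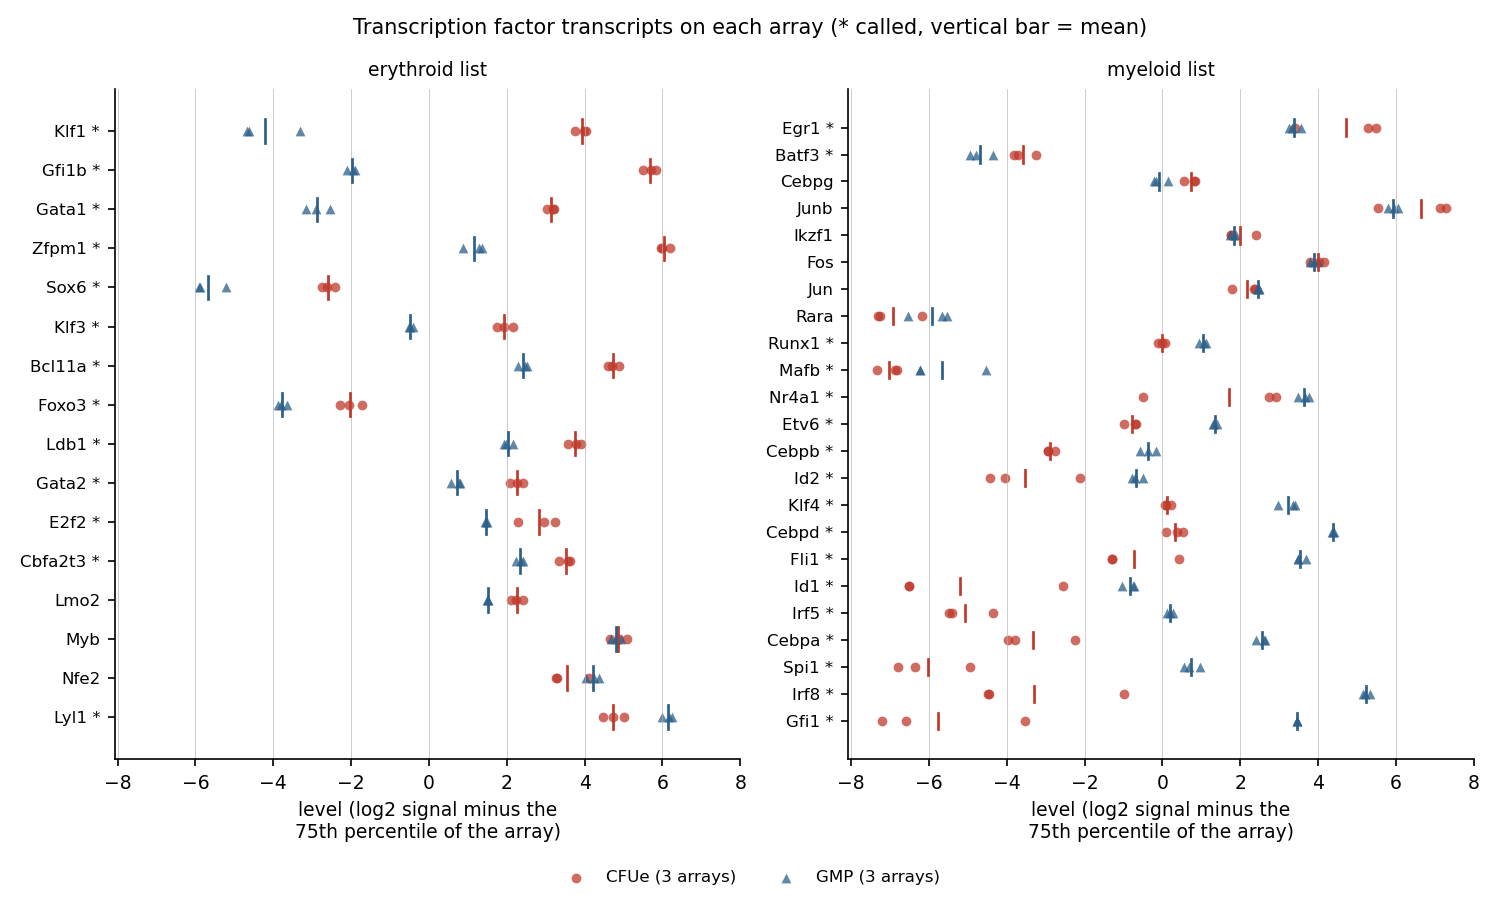
Level of each erythroid (left) and myeloid (right) transcription factor on the 3 CFUe arrays (circles) and the 3 GMP arrays (triangles), in log2 signal minus the 75th percentile of the array. Klf1, Gfi1b and Gata1 lie at 3.04 or above in CFUe and at -1.89 or below in GMP, and Gfi1, Irf8, Spi1 and Cebpa are below every GMP array on every CFUe array.

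Promoters of genes from both ends are shown for the letters that these factors are known to bind, with the start given by RefSeq (build GRCm38.p6) and the 250 bases before it. Searched on both strands were 4 motifs: AGATAA for the GATA factors, CACACCC for Klf1 and its relatives, GAGGAAG for PU.1 and other ETS factors, and TTGCNNAA for the C/EBP proteins. Matches are in capitals, and a match on the other strand shows as the reversed complement. Over all 27025 genes of the promoter table, AGATAA stood in 10.25%, CACACCC in 6.85%, GAGGAAG in 10.39% and TTGCNNAA in 9.55%. Of the genes tested, 11424 of 14281 had an entry. The 6 genes were chosen from called genes after their matches had been seen. Epor and Kel (both minus strand) hold the GATA factor motif at -54 and -56, Klf1 (plus strand) the Klf1-type motif at -116, and Elane, Mpo and Csf3r (all plus strand) the ETS motif at -85, at -247 and -224, and at -86.
Epor (chr9:21963577-21963826): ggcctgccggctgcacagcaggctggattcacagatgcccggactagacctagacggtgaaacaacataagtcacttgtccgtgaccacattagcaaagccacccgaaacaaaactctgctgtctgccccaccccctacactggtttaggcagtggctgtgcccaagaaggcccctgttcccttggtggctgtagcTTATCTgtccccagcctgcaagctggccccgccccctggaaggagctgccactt
Kel (chr6:41704326-41704575): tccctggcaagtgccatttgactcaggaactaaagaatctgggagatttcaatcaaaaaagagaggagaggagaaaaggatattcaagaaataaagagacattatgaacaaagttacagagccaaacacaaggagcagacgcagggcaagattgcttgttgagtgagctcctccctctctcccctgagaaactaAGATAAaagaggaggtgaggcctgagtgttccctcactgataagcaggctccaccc
Klf1 (chr8:84901732-84901981): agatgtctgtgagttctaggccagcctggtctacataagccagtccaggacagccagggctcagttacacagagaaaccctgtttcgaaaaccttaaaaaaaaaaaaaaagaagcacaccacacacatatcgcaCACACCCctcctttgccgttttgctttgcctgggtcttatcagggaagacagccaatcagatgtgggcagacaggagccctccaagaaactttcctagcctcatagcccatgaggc
Elane (chr10:79886062-79886311): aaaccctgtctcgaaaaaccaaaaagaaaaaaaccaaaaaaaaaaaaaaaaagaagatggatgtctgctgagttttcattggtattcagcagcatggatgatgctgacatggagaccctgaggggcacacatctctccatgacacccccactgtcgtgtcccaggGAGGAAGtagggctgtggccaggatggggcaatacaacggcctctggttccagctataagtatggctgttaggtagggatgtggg
Mpo (chr11:87793534-87793783): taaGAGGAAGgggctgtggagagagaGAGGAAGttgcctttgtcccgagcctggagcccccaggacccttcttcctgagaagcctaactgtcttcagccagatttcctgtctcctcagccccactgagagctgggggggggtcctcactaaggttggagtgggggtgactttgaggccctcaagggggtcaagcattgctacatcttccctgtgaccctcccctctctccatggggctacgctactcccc
Csf3r (chr4:126024409-126024658): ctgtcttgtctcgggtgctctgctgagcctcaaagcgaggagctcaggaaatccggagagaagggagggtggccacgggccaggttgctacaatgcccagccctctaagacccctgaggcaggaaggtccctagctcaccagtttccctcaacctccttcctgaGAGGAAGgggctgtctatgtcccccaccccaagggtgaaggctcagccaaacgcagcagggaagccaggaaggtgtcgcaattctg

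Among gene lists with entries for at least 80% of their measured members, GAGGAAG stood in 7 of 10 GMP marker promoters (70.0%), in 7 of 13 for Fc receptors and their signaling genes (53.85%) and in 5 of 13 primary granule promoters (38.46%), with no test. AGATAA stood in 0 of the 10, 1 of the 13 and 0 of the 13, and in 0 of 14 promoters of erythroid factors, of which 3 held CACACCC. The latter also stood in 2 of 13 primary granule and 2 of 13 Fc receptor promoters (15.38% each) and in 0 of 10 GMP marker promoters. TTGCNNAA stood in 1 promoter of each of the 3 myeloid lists (9.55% of all promoters hold it) and in 0 of the 14. These counts describe letters in a fixed window and overlap between lists, since Mpo, Elane, Prtn3 and others are members of more than 1. The red cell membrane, heme, erythroid marker and NADPH oxidase lists had too few entries and were not counted. Shares over the genes tested alone were not computed.

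Cytokine receptors divided the fractions at the cell surface. Some of these receptors, Epor and Csf3r among them, carry no kinase of their own and signal through JAK kinases and STAT factors. Others, such as Csf1r and Flt3, are not of this kind. Each fraction depends on its own ligand, erythropoietin for CFUe and the colony-stimulating factors for GMP. Of 21 receptors measured, 2 were higher in CFUe, 11 were higher in GMP and 8 were not called (median -1.37). Epor, the erythropoietin receptor, was at 5.04, 5.25 and 5.29 in CFUe and at -2.92, -3.19 and -2.71 in GMP, a difference of 8.13 ± 0.24 (limma adjusted p = 6.56e-14). The other call was Il7r, a lymphoid receptor, which was above background on 1 CFUe array and no GMP array and was not called without CFUe replicate 3 or without GMP replicate 2 or 3. Csf3r, the G-CSF receptor, was well above background on no CFUe array and was at 1.51, 1.37 and 1.25 in GMP, at least 74.9-fold higher there; such a bound sets the GMP mean against the lowest signals measured above background on the CFUe arrays. Csf1r (the M-CSF receptor) was at -4.57, -3.78 and -3.20 in CFUe, above background on 2 arrays, against 2.71, 2.73 and 2.64 (-6.54). Csf2rb, the shared beta chain for GM-CSF, IL-3 and IL-5, differed by -7.54 and the GM-CSF alpha chain Csf2ra by -3.05, the latter at 2.35, 2.60 and 2.92 in CFUe and thus clearly expressed there. The IL-3 alpha chain Il3ra differed by -0.23 and Flt3 by 0.24, neither called. Il6ra (-2.44), the signal transducer Il6st (-5.10, above background on 1 CFUe array) and the TNF receptor Tnfrsf1a (-4.47) were higher in GMP.

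Genes downstream of the receptors differed less. Of 19 JAK-STAT and feedback genes, 1 was higher in CFUe (11.5% over all genes), 5 were higher in GMP (15.7% over all genes) and 13 were not called. Stat5a, which relays erythropoietin, was the 1 higher in CFUe (1.1, not called without CFUe replicate 3). Socs3, an inhibitor induced by G-CSF and IL-6, was at -4.14, -3.95 and -3.45 in CFUe and at 2.38, 2.04 and 1.61 in GMP (-5.86). Jak3 (-2.33), Stat3 (-2.31), Pim1 (-1.75) and Socs1 (-1.20) were also higher in GMP, whereas Jak1, Jak2 and Tyk2 lay within 0.59 of 0 and were not called. Cish, a target of Stat5, was at 2.77 and 3.0 on CFUe replicates 1 and 2 and at -1.31 on replicate 3, and with 0.69, 0.58 and 0.60 in GMP it was not called, but without that array it differed by 2.27 and was called.

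The heme pathway was higher in CFUe almost throughout, apart from the ubiquitous form of its first enzyme. Heme is built from glycine and succinyl-CoA in a chain of enzyme steps between mitochondrion and cytosol, and the first, 5-aminolevulinate synthase, has a ubiquitous form (Alas1) and an erythroid form (Alas2). Of 18 genes, 14 were higher in CFUe, 1 was lower and 3 were not called, with a median of 2.03. Scaled to the spike-ins 6 were higher and 3 lower, with a median of 0.67. Alas1 was at 2.11, 2.06 and 2.30 in CFUe and at 6.51, 6.66 and 6.38 in GMP, a difference of -4.36 ± 0.21 (limma adjusted p = 1.74e-11). Alas2 was low in both, at -2.98, -2.85 and -2.83 against -5.89, -5.69 and -4.61, above background on 1 GMP array, and differed by 2.51. Later enzymes were higher in CFUe. Alad was at 4.90, 5.07 and 5.08 against 1.98, 2.15 and 1.88, a difference of 3.01. Uros differed by 2.02, Urod by 2.24, Ppox by 1.47 and Fech, which inserts the iron, by 2.39. Cpox differed by 3.67 ± 0.96 and was tight within both fractions, its SE coming from the spread of other fractions in the shared fit. Carriers of heme intermediates were higher too, the glycine importer Slc25a38 by 2.05, Abcb6 by 2.39 and Tmem14c by 1.62. Blvrb, a flavin and biliverdin reductase abundant in red cells, had the largest difference of the list (6.66). Hmox1, which breaks heme down, differed by -0.64 and was not called.

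Globin and iron genes were higher in part. Hba-a1 (alpha globin, 3.97) and Hbb-bt (beta globin, 3.90) were higher in CFUe, and the embryonic genes Hbb-y (0.51) and Hbb-bh1 (1.18, above background on 1 array of each fraction) were not called, though without GMP replicate 3 Hbb-bh1 was; globin copies may share signal. Of 17 iron genes, 9 were higher in CFUe, 3 were lower and 5 were not called, with a median of 1.07 that turned to -0.29 with spike-in scaling, where 3 were higher and 8 lower. Tfr2, the second transferrin receptor and a partner of Epor, was at 5.09, 5.22 and 5.13 against 1.55, 1.29 and 1.20, a difference of 3.80 ± 0.17. The endosomal iron exporter Slc11a2 (2.73), the reductase Steap3 (2.62), ferroportin, Slc40a1 (2.04), Glrx5 of the iron-sulfur pathway (1.82) and the main receptor Tfrc (1.78) followed. Hfe, which restrains transferrin uptake, was higher in GMP, at 1.36, 1.28 and 1.11 against -5.18, -4.39 and -4.44 (-5.92, above background on 2 CFUe arrays), as was Ncoa4, the ferritin autophagy receptor (-2.48). Slc25a37, the mitochondrial iron importer mitoferrin, was also higher in GMP (-1.09), against the direction of most heme genes.

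Genes of the red cell membrane differed widely. These proteins form the spectrin skeleton, its anchors and the blood group antigens. Of 23 measured, 20 were higher in CFUe, 1 was lower and 2 were not called, with a median of 6.34 and, with unmeasured genes at their bound, 5.60. On the 13 of them that were above background on all 6 arrays the count was 10. Rhd, the Rhesus protein gene, was at 5.83, 6.08 and 5.93 in CFUe and at -5.47, -5.03 and -5.31 in GMP, above background on 1 GMP array, a difference of 11.22 ± 0.30. Ermap, the Scianna antigen (10.76), the claudin Cldn13 (9.05), Add2, the beta adducin (8.29), and Rhag, the Rhesus partner (8.08), were likewise above background on 1 GMP array each. Kel, the Kell metalloprotease, was at 3.88, 4.05 and 3.95 against -3.38, -3.41 and -3.55 (7.40) and the carbonic anhydrase Car2 at 7.59, 7.57 and 7.41 against 1.17, 0.82 and 0.95 (6.55 ± 0.12). Other skeleton genes were closer, Epb41 at 1.26 and Dmtn at 3.45. Slc4a1, the band 3 anion exchanger, was at -3.01, -2.94 and -2.68 in CFUe against -3.49, -3.87 and -3.17 and was not called (0.64), nor was Gypc (0.84). The glucose transporter Slc2a1, abundant in human red cells, was higher in GMP (-5.11). Tmod1, which caps actin in the skeleton, counts among the 20 but was above background on no array of either fraction and was not called without CFUe replicate 2 or GMP replicate 2.

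The list of azurophil (primary) granule genes was higher in GMP for each member measured. Its granule proteases and peroxidase are made at the promyelocyte stage and stored for killing microbes. The list is broader than granule contents. It also held the glycolytic enzyme Gpi1, the surface protein Ms4a3, the protease inhibitor Serpinb1a and haptoglobin, and its counts and medians include these. Of 16 measured, 16 were higher in GMP (15.7% over all genes), with a median difference of -7.22 and array medians of -2.36, -2.51 and -0.48 in CFUe and 6.82, 6.91 and 6.65 in GMP. Of the 13 above background on all 6 arrays 13 were called, and leaving out CFUe replicate 3 or GMP replicate 3 left 16. Elane, neutrophil elastase, was at -5.10, -5.69 and -2.88 in CFUe, above background on 1 array, and at 6.62, 6.66 and 6.45 in GMP, a difference of -11.13 ± 0.51 (limma adjusted p = 1.17e-11). Mpo, myeloperoxidase, was at 1.11, 0.75 and 4.29 against 9.02, 9.37 and 9.30 (-7.18 ± 0.60). CFUe were thus well above background for Mpo, and CFUe replicate 3 was more than 3 log2 units above the other CFUe arrays. The smallest differences were those of Gpi1, a glycolytic enzyme (-1.68), Srgn, the proteoglycan core that packs the granule (-2.12), and the protease activator Ctsc (-2.86). Lysozyme (Lyz1, -7.26, above background on 2 CFUe arrays) and Plac8 (-5.60) lay between.

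Granule genes of later neutrophil stages differed less. Of 15 secondary and tertiary granule genes, 11 were higher in GMP and 4 were not called, with a median of -2.66. S100a8 was at -0.20, -0.23 and 2.29 in CFUe and at 7.14, 6.91 and 6.92 in GMP (-6.37), and its partner S100a9 differed by -4.89. Anxa1, the annexin of the resolution of inflammation (-6.63), Lcn2, the siderophore-binding lipocalin (-4.66, above background on 1 CFUe array), and Camp, the cathelicidin (-2.66), followed. The 4 genes not called were Ltf, Ngp, Mmp9 and Retnlg. Lactoferrin, Ltf, was at -3.96, -3.23 and -0.83 in CFUe against -3.15, -4.10 and -3.96 (1.06), and Ngp differed by -1.45, or by -2.27 and called without CFUe replicate 3. Without GMP replicate 3, 9 were called lower and 1 higher.

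Phagocyte genes followed the granules. The NADPH oxidase makes superoxide from a membrane core (Cybb, Cyba) and cytosolic subunits such as Ncf1, Ncf4 and Rac2. Of 7 genes, 6 were higher in GMP, and Rac1, the widely expressed relative of Rac2, was not called (-0.63). Ncf4 was at -3.80, -3.49 and -1.25 against 5.49, 5.60 and 5.33 (-8.32 ± 0.42), Rac2 differed by -2.55 and Cyba, which is broadly expressed, by -1.57. Cybb was above background on no CFUe array and at least 54.9-fold higher in GMP. Of 16 Fc receptor and signaling genes, 2 of them part of the gate, 13 were higher in GMP and 3 were not called (median -2.86). The adaptor Tyrobp was at -4.66, -4.30 and -0.77 against 5.77, 5.81 and 5.50 (-8.93, above background on 2 CFUe arrays), the adaptor Fcer1g differed by -6.43, Plcg2 by -4.31 and the kinase Syk by -2.72. Btk (-0.05) and the phosphatase gene Inpp5d (-0.16), which serve many blood cells, were not called.

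Pattern recognition genes, which sense microbial products, were higher in GMP for 14 of 20 measured and not called for 6; their median was -2.55, or -1.32 with genes at their bound. Tlr2 was at -5.77, -5.92 and -4.53 in CFUe, above background on 1 array, and at 3.16, 3.03 and 3.01 in GMP (-8.47). Cd14, the lipopolysaccharide coreceptor (-5.78), Nod1, an intracellular peptidoglycan sensor (-5.46), and Casp1, the protease of inflammasomes (-4.98), were above background on all 6 arrays. The common adaptor Myd88 (-0.24) and Tlr9 (0.86) were not called. Of 26 lysosomal genes, 16 were higher in GMP, 1 was higher in CFUe and 9 were not called, with a median of -1.31. Ctss (-7.24, above background on 1 CFUe array), Ctsh (-6.55), Cd63 (-3.84), progranulin, Grn (-3.58), and acid ceramidase, Asah1 (-2.97), led these, while cathepsin D, Ctsd (0.11), and Lamp1 (-0.42) were not called.

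Surface genes of leukocyte traffic were higher in GMP at a larger share than all genes. Of 18 integrin and adhesion genes, 9 were higher in GMP, 1 was higher in CFUe and 8 were not called. Itgal, the LFA-1 alpha chain, differed by -3.70, and Itgam, the Mac1 antigen, was above background on no CFUe array and at least 18.7-fold higher in GMP. Itga4, the VLA-4 alpha chain of progenitors and erythroblasts, was higher in CFUe (1.13, not called without CFUe replicate 3). Of 16 chemoattractant receptors, 8 were higher in GMP and 8 were not called; their median of -1.16 was -0.39 with genes at their bound and turned to 0.16 with another background correction. Ccr2, the receptor of inflammatory monocytes, was at least 53.0-fold higher in GMP, and the leukotriene B4 receptor Ltb4r1, at 4.46, 4.50 and 4.28 against -2.13, -1.57 and -1.04, was the most uneven of those measured in both fractions. Their ligands leaned the same way, with 12 of 22 chemokine genes higher in GMP and 1 higher in CFUe, among them Ccl9 (-8.05) and Ccl4 (-7.32), both above background on 2 CFUe arrays. Of 21 C-type lectins, 12 were higher in GMP and 1 in CFUe. Clec5a, the receptor that pairs with the Tyrobp product, was at least 336-fold and Clec4e, the sensor Mincle, at least 161-fold higher in GMP. The MS4A family of tetraspan surface proteins had 8 of 12 higher in GMP.

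Markers of other myeloid lineages were found in GMP as well. Of 9 mast cell and basophil genes, 8 were higher in GMP, with array medians of 1.48, 1.38 and 1.17 in GMP and -4.32, -3.81 and -3.84 in CFUe. Hdc, which makes histamine, was at 5.42, 5.39 and 5.23 in GMP against -2.58, -2.60 and -1.97 (-7.73), and the basophil protease Prss34 differed by -5.14. Of 8 eosinophil genes, 6 were higher in GMP. Eosinophil peroxidase, Epx, was above background on no CFUe array and at 2.40, 2.22 and 2.28 in GMP, at least 142-fold higher, and Prg2, the major basic protein, was at 5.24, 4.97 and 4.59 against -5.20, -3.84 and -4.63 (-9.49, above background on 2 CFUe arrays). Of 12 macrophage genes, 7 were higher in GMP, or 3 with another background correction; Vcam1, at least 172-fold, and Adgre1, the F4/80 antigen, at least 33.9-fold, stood out, whereas C1qb and Marco were not called. Of 9 B cell markers 1 was higher in CFUe and 1 higher in GMP (11.1% each, against 11.5% and 15.7% of all genes). Of 10 T and NK cell markers 3 were higher in GMP (30.0%), or 0 with another background correction and 2 without CFUe replicate 3. The array medians of both lists were low, from -5.15 to -3.31 over both fractions. How many cells of each kind the gates held was not tested.

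Megakaryocyte genes, whose lineage shares a progenitor with the erythroid one, were partly higher in CFUe. Of 10 measured, 4 were higher in CFUe, 1 was higher in GMP and 5 were not called (median 0.86, and -0.50 with spike-in scaling). Vwf, the von Willebrand factor gene, was at 0.76, 0.86 and 0.68 in CFUe and at -2.15, -2.61 and -2.59 in GMP (3.22), Gp1ba differed by 4.17, Pf4 by 2.19 and Gp5 by 6.31, the last above background on 1 GMP array. Itga2b, the CD41 gene, was at -3.44, -3.15 and -2.28 against -1.73, -1.37 and -1.15 and was higher in GMP (-1.54). It was not called with another background correction. Stem and multipotent progenitor genes leaned to GMP, with 11 of 17 higher there (64.7%) and 1 higher in CFUe (5.9%). Over all genes these shares were 15.7% and 11.5%. On the 9 of them above background on all 6 arrays, 6 were higher in GMP, and with another background correction 9 of 17 were. Tek counts among the 11 but was above background on no array of either fraction. Cd34 was at -3.20, -3.85 and 0.60 in CFUe against 5.78, 5.92 and 5.93, and Hlf differed by -2.66. The 1 higher in CFUe was Mllt3 (3.38), a cofactor of stem cell and erythroid-megakaryocytic genes.

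Glycolysis divided the fractions between related forms of the same enzyme. Of 23 genes, 5 were higher in CFUe, 10 were higher in GMP and 8 were not called, with a median of -0.78. For pyruvate kinase, the liver and red cell gene Pklr was at 1.01, 0.87 and 0.65 in CFUe and at -4.74, -5.54 and -4.27 in GMP, above background on 2 GMP arrays (5.69 ± 0.29). Pkm was at -4.44, -4.26 and -1.38 in CFUe, above background on 2 arrays, and at 4.62, 4.75 and 4.70 in GMP (-8.06 ± 0.50). The arrays did not overlap for either gene, and the order of the fractions was opposite. For hexokinase, Hk1 was higher in CFUe (1.52), and Hk2 (-3.12) and Hk3 (-8.05) were higher in GMP. For phosphofructokinase, the muscle form Pfkm was higher in CFUe, at 4.34, 4.51 and 4.33 against 1.21, 1.34 and 1.09 (3.18), the platelet form Pfkp was higher in GMP (-2.42), and the liver form Pfkl differed by -0.10. Of the glucose transporters, Slc2a3 was higher in CFUe (2.12) and Slc2a1 higher in GMP (-5.11). Pgam1, at 3.03, 3.03 and 3.48 against 7.05, 7.13 and 6.97, differed by -3.87 and Ldhb by -4.26, while Ldha (0.54) was not called. Scaled to the spike-ins, 2 genes were higher in CFUe and 16 higher in GMP.

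Antioxidant enzymes were also divided. Of 26 pentose phosphate and antioxidant genes, 9 were higher in CFUe (34.6%) and 5 in GMP (19.2%), against 11.5% and 15.7% of all genes. Their median of 0.32 turned to -1.04 with spike-in scaling, where 2 were higher and 14 lower. Prdx2, the abundant peroxiredoxin of red cells, was at 7.57, 7.73 and 7.66 against 5.66, 5.72 and 5.45 (2.05). The glutathione synthesis gene Gclm differed by 2.69 and the mitochondrial thioredoxin reductase Txnrd2 by 2.18. Nqo1, a quinone reductase, was above background on no GMP array and at least 50.4-fold higher in CFUe. Glutathione reductase, Gsr (-2.31), the peroxiredoxin Prdx5 (-2.29) and Gpx3, at least 22.2-fold, were higher in GMP. Of 24 lipid enzymes, 5 were higher in CFUe (20.8%) and 7 higher in GMP (29.2%), or 15 higher in GMP with spike-in scaling. Besides Sphk1, the desaturases Fads1 (1.77), Fads2 (3.78) and Fads3 (6.36) were higher in CFUe. Among those higher in GMP were 3 that make or help make eicosanoids, Ptgs1, cyclooxygenase 1, at 3.29, 3.28 and 3.14 against -6.77, -7.34 and -4.11 (-9.31, above background on 1 CFUe array), Alox5ap (-6.23) and Lta4h (-3.33), named after their values were seen.

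**Figure D3:**
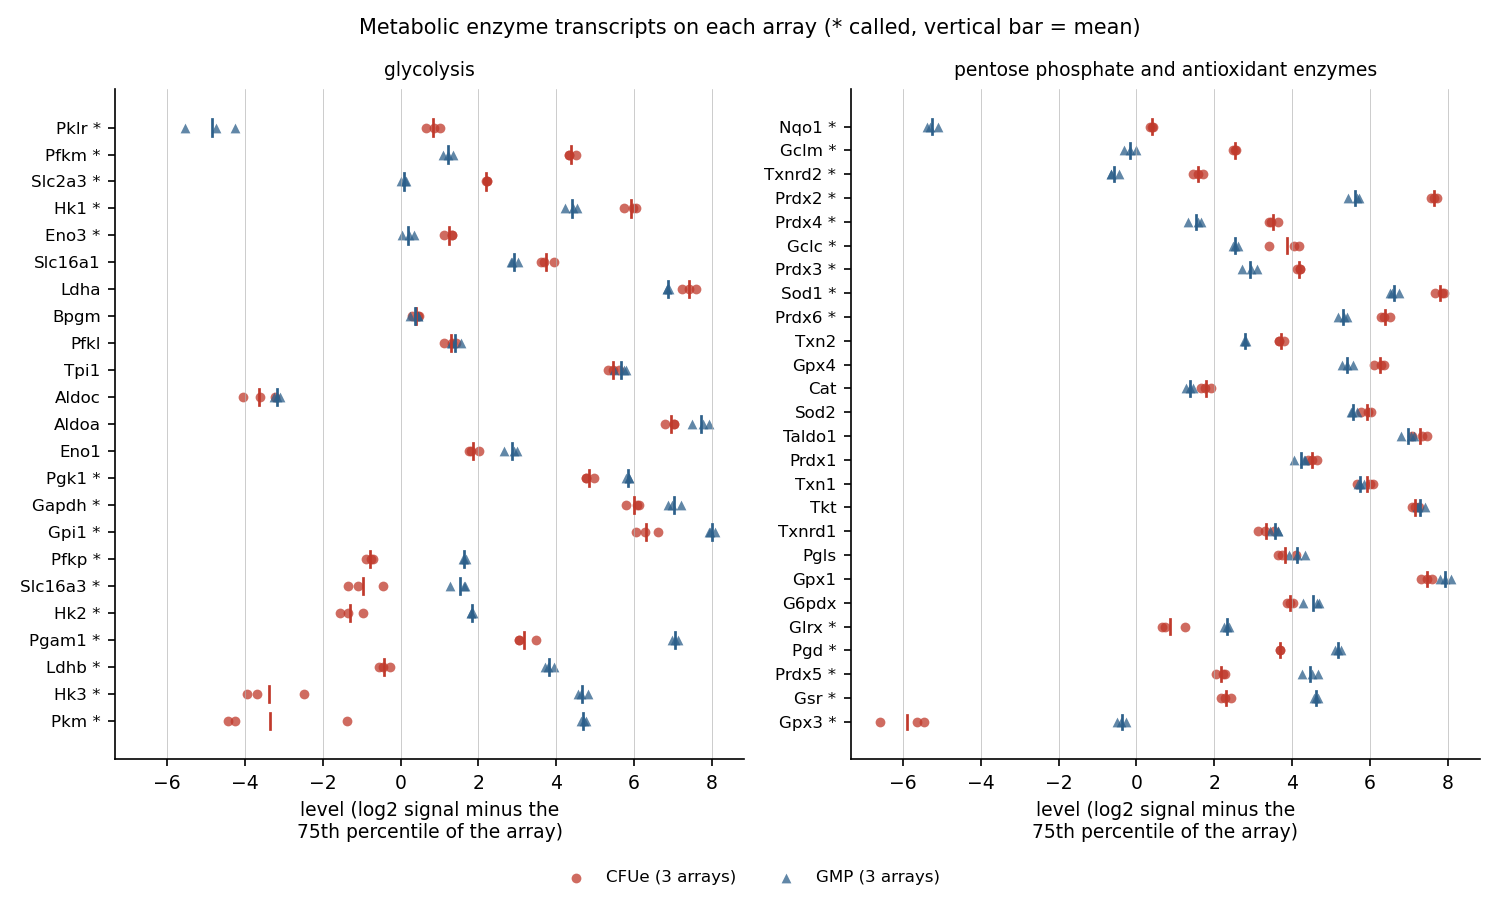
Level of each glycolysis gene (left) and pentose phosphate or antioxidant gene (right) on the 3 CFUe arrays (circles) and the 3 GMP arrays (triangles), in log2 signal minus the 75th percentile of the array. Pklr, Pfkm and Hk1 lie to the right in CFUe, and Pkm, Hk3 and Hk2 in GMP; Pgd has 2 CFUe values, since 1 spot was left out.

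Genes of growth and division differed little. Of 27 DNA replication genes 3 were higher in CFUe (11.5% over all genes), and of 27 mitosis genes 2 were higher. Their medians of 0.41 and 0.30 lay near the 0.21 of all genes and turned to -0.95 and -1.06 with spike-in scaling. The exceptions were Ccne1, the G1/S cyclin E1, at 5.27, 5.48 and 5.50 against 2.10, 2.23 and 2.15 (3.26 ± 0.16), and Cenpa, the centromeric histone (2.12). Inhibitors of the cycle were uneven, with Cdkn1a, the p21 gene, at -2.67, -2.85 and -3.35 in CFUe and at 0.79, 0.77 and 0.41 in GMP (-3.61). Of 24 nucleotide and folate genes 4 were higher in CFUe (16.7%), led by Mthfd1 (2.47). Impdh1 (-1.58) was the 1 that was lower (4.2%, against 15.7% of all genes). Of 83 genes matched by the names of cytosolic ribosomal proteins 2 were higher and 2 lower, of 78 mitochondrial ribosomal proteins 6 were higher (3 to 10 with 1 array left out), led by Mrpl52 (2.86). With spike-in scaling 1 of the nucleotide and 1 of the mitochondrial ribosomal genes were higher.

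Genes of cell death moved both ways, and ubiquitin genes of red cell remodeling were higher in CFUe or not called. Of 22 BCL2 family and death receptor genes, 2 were higher in CFUe (9.1%, against 11.5% of all genes) and 5 higher in GMP (22.7%, against 15.7%). Pmaip1, the BH3-only gene Noxa, was at -2.94, -3.21 and -3.73 against 3.22, 3.17 and 3.20 (-6.49 ± 0.39), and Bcl2 differed by -2.32. Bcl2l1, the survival gene Bcl-xL of erythroblasts, differed by -0.71 and Mcl1 by -0.58, neither called. Of 11 ubiquitin genes linked to red cell maturation, 5 were higher in CFUe (45.5%), led by Trim10 (3.49) and Ube2l6 (2.79); with spike-in scaling 2 were higher and 2 lower. Among solute carriers outside the mitochondrion, 46 of 239 were higher in CFUe (19.2%) and 54 higher in GMP (22.6%), against 11.5% and 15.7% of all genes. The glutamine carrier Slc38a5 was at 5.91, 6.15 and 6.03 against -5.07, -4.82 and -4.62 (10.86, above background on 2 GMP arrays), and Slc31a2, a copper carrier, was at least 56.7-fold higher in GMP.

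**Figure D4:**
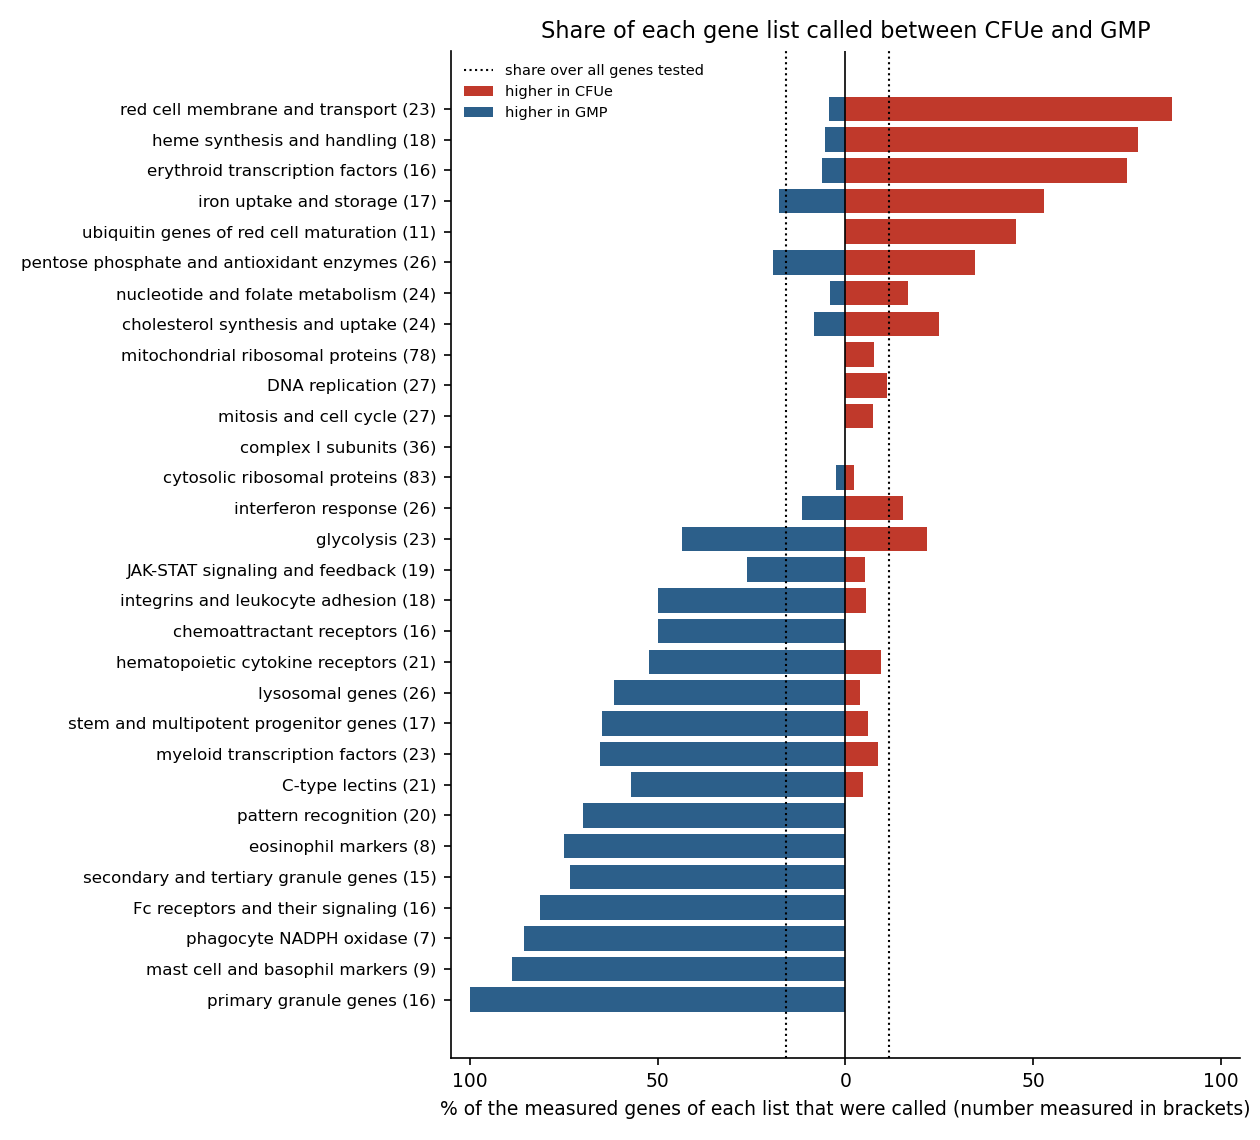
Percent of the measured genes of 30 lists that were called higher in CFUe (right, red) or higher in GMP (left, blue), with the number measured in brackets. Dotted lines mark the 11.5% and 15.7% of all genes tested; red cell membrane, heme and erythroid factor lists reach 75% or more on the right, primary granule genes 100% on the left, and the lists of division and respiration stay at or inside the lines.

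The same lineage question was asked 1 stage earlier, in PreMegE against PreGM, on arrays that share none with CFUe and GMP. Sex-chromosome transcripts were uneven here too. Xist was at -5.34, -7.06 and -6.84 on the PreMegE arrays and at 5.58, 5.66 and -6.67 on the PreGM arrays. With the sex-chromosome transcripts as a covariate, 5922 probes had a called stage difference, against 5961 without. Between PreMegE and PreGM 1748 of 14281 genes (12.2%) were called, 716 (5.01%) higher in PreMegE and 1032 (7.23%) higher in PreGM. Of the 1637 genes higher in CFUe, 408 were already higher in PreMegE, 24 were higher in PreGM and 1205 were not called. Of the 2244 higher in GMP, 812 were already higher in PreGM, 61 were higher in PreMegE and 1371 were not called. The difference between the stages, tested as an interaction, was called for 3151 genes (22.1%), 1348 (9.44%) with a positive and 1803 (12.6%) with a negative value. A positive value means that CFUe minus GMP exceeded PreMegE minus PreGM, which holds for a wider erythroid difference and for a narrower myeloid one alike. By probe, the shares called were 12.0% at the early stage (5.64% and 6.39%) and 20.2% for the stage difference (8.32% and 11.9%).

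Lists differed in how much of them was already divided at the early stage. Over all genes, 5.01% were higher in PreMegE and 7.23% in PreGM. A positive stage difference was called for 9.44% and a negative one for 12.6%. Red cell membrane genes were called higher in PreMegE for 16 of 23 and erythroid factors for 9 of 16, with Klf1 at an early difference of 4.07 and Epor at 4.09. Heme genes were called higher in PreMegE for 2 of 18, and 12 of 18 had a positive stage difference; Fech, for example, was at 0.79 in PreMegE and 0.22 in PreGM. For Alas1 the early difference was -1.79. Primary granule genes were higher in PreGM for 8 of 16, and 16 of 16 had a negative stage difference. Cst7, the granule cystatin (early difference -0.77), and Nkg7 (0.45) were not called early. Mpo was at 5.87 in PreMegE and 9.32 in PreGM and at 2.05 and 9.23 in CFUe and GMP, so that its level changed on the erythroid side.

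Cytokine receptors were already divided, with 12 of 21 higher in PreGM and 3 higher in PreMegE. The early shares over all genes were 7.23% and 5.01%, which also apply to the early counts that follow. Csf1r had an early difference of -5.94 against -6.54 later, and the stage difference was not called, while Csf2ra differed by -0.04 early and by -3.05 later, a stage difference that was called. Some lists had fewer calls at the later stage. Of 10 megakaryocyte genes, 9 were higher in PreMegE and, at the later stage, 4 were higher in CFUe; Pf4 was at a mean of 4.55 in PreMegE and at -0.69, -0.28 and -0.60 in CFUe. Itga2b turned, from 2.31 early to -1.54 later, though the later difference was not called with another background correction. Of 13 immediate early genes, 7 were higher in PreMegE, and later 1 was higher in CFUe and 3 higher in GMP, or 3 and 1 without CFUe replicate 3. A positive stage difference was called for 9.44% of all genes. Mitochondrial ribosomal proteins had 27 of 78 with such a difference, DNA replication genes 8 of 27, nucleotide genes 12 of 24 and ATP synthase subunits 8 of 17. Their early median differences were -0.29, -0.24, -0.22 and -0.39. With spike-in scaling, 18809 of the 19161 probes with a called stage difference were negative.

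**Figure D5:**
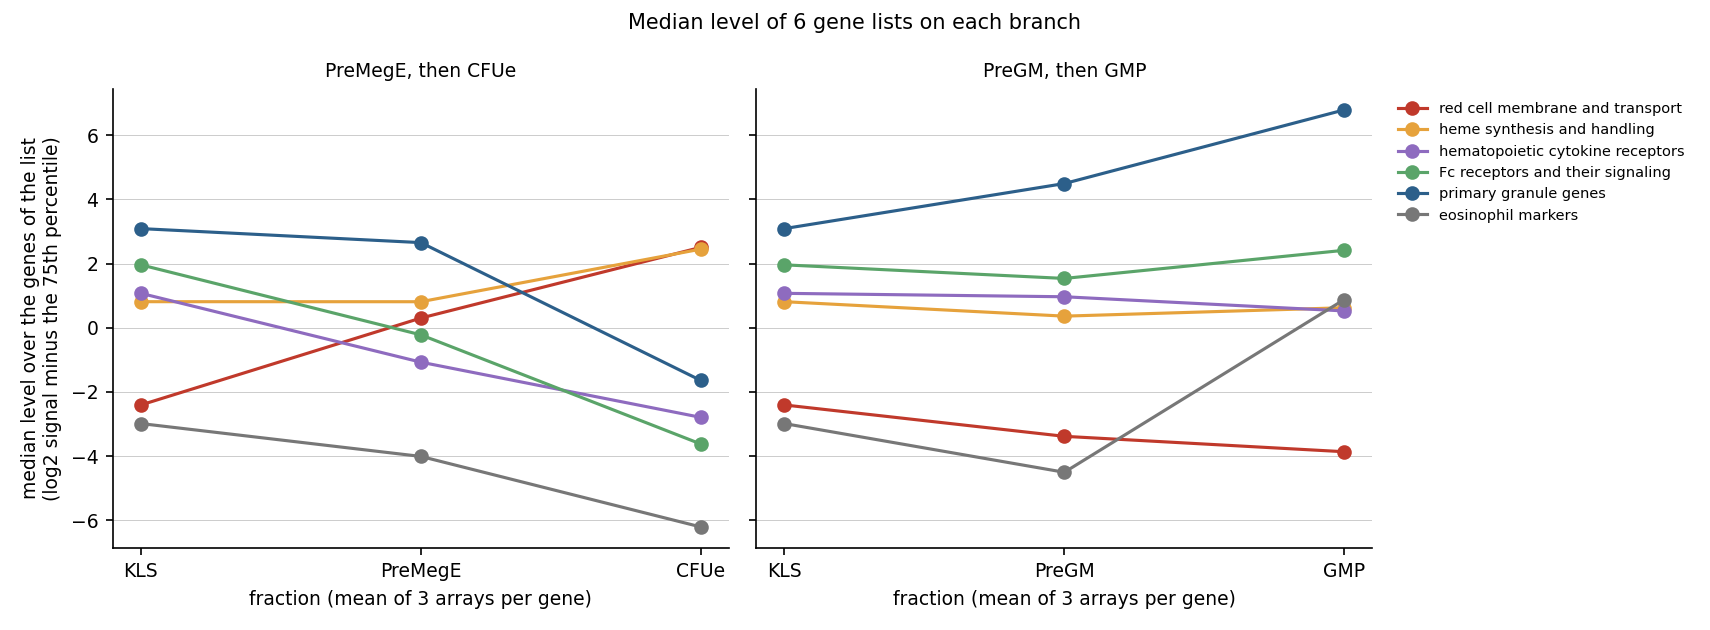
Median level over the genes of 6 lists in KLS (the sca1+ ckit+ lineage-negative fraction that holds stem cells), then PreMegE and CFUe (left) or PreGM and GMP (right), in log2 signal minus the 75th percentile, from means of 3 arrays per gene. Primary granule genes run from 3.09 in KLS to -1.64 in CFUe and 6.79 in GMP, and red cell membrane genes from -2.41 to 2.51 and -3.87.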

How the data were processed

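Total RNA from 7 sorted bone marrow fractions (21 arrays, 3 per fraction) was hybridized to Agilent 1-color mouse arrays. The deposited intensity values are background-subtracted processed signals that the authors obtained with Feature Extraction 10.7.1.1, and the deposited series table of log2 values served as an alternative. From each array's 43379 non-control spots, outlier spots (80 to 283) were dropped, none was saturated, and probes were averaged as log2 signal minus the array's 75th percentile. All 21 arrays entered 1 linear model (limma 3.58.1, R 4.3.3) with a term per fraction, and Benjamini-Hochberg adjustment ran over 29532 probes well above background on every array of at least 1 fraction. Genes were called at an adjusted p under 0.05 and at least 2-fold, with 1 probe per gene, that of the highest mean over 21 arrays. The code was tested on simulated data. The number of arrays limits precision.

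Named genes were the 15 largest called differences each way among probes above background on all 6 arrays without overlap, list members by role, and the 5 largest each way among genes called in opposite directions at the 2 stages. Members and lists were chosen with earlier results of these data known. Symbols and promoters are RefSeq's (GRCm38.p6). Alternatives changed background correction, scaling, filter, fold, blocks, covariate, source and samples. Some genes are not reported here.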

Additional observations from a re-analysis of the deposited data

Results flagged for a closer look

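The CFUe minus GMP difference differed from the PreMegE minus PreGM difference for 5961 probes of 29532 (20.2%), by the interaction term. The 10 genes that follow were called in opposite directions at the stages, with the largest stage differences each way, so the sign of the stage difference follows from how they were chosen.

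Higher in PreMegE, then higher in GMP, were the eosinophil genes Prg2 (stage difference -12.67), Ear1 (-10.03) and Ear6 (-9.45), the prostaglandin synthase Ptgs1 (-10.89) and the ficolin Fcnb (-9.11). Those of Ear1 and Ear6 rest partly on signals at background, since neither was above it on any CFUe or PreGM array, and Ear6 only on 1 PreMegE array, so that their sizes and order are not measured and the early direction of Ear6 is uncertain. Ear1 was above background on no CFUe array and was at 1.74, 1.37 and 1.21 in GMP, at least 78.4-fold higher, after a mean of -3.70 in PreMegE, with PreGM at background. Ear6 was at least 47.2-fold higher in GMP. Whether the probes tell these close copies apart was not tested.

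Higher in PreGM, then higher in CFUe, were Fads3, a member of the fatty acid desaturase family (stage difference 10.12), and the lymphoid genes Txk, a T cell kinase (8.20), Dntt, the terminal transferase (7.73), and Blnk, a B cell adaptor (5.71), with Arhgdig (6.96). Txk was above background on no GMP and no PreMegE array and Arhgdig on no PreMegE array, so that the sizes of these are not measured either. Fads3 was at 2.59, 2.93 and 2.27 in CFUe and at -4.02, -3.94 and -3.33 in GMP, after an early difference of -3.76. Dntt was at 4.63 in PreGM, at -1.71, -1.54 and 0.36 in CFUe and at -2.27, -2.93 and -2.06 in GMP, and it was not called without CFUe replicate 3.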

How the results depend on the processing

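Main counts were 7687 probes for CFUe against GMP (3428 higher and 4259 lower) and 5961 for the stage difference. They were 3884 (1637 and 2247) and 3191 (1370 and 1821) with 1 probe per gene, where fewer probes were tested. Spike-in scaling gave 17688 (682 and 17006) and 19161 (352 and 18809). Normexp gave 4749 in all and 2446 lower, and 1945 lower for the stage difference. The filter on all 6 arrays gave 4677 (2053 lower), and no minimum fold gave 15667 (9148 and 6519). Leaving out 1 array gave 7263 to 8483 probes, and 5559 to 6455 for the stage difference. The remaining alternatives stayed within 1.5 times. Replicate numbers did not pair the arrays (correlations of deviations 0.124, -0.0819 and 0.0812), and with the replicate number as a block 7681 and 5950 probes were called.

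With spike-in scaling, called differences reversed for Batf3 (-0.27), Cbfa2t3 (-0.19), Egr1 (-0.014), Epb41 (-0.10), Il7r (-0.16), Itga4 (-0.24), Stat5a (-0.27) and Tmod1 (-0.31), and uncalled ones turned negative for C1qb (-1.31), Ctsd (-1.25), Flt3 (-1.12), Myb (-1.30) and Sphk2 (-1.36). With GMP replicate 3 as the only GMP array the uncalled Mmp9 was at -1.79. The cause was not tested for any of these.

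No slide held both fractions. With the slide as a block 7434 probes were called and with the slide series 7330. Probes near background and the 3 arrays per fraction limit small differences.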

Other observations

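Interferon-response genes were called about as often as all genes, 4 higher in CFUe and 3 higher in GMP of 26 measured, or 2 and 18 with spike-in scaling. Isg20, an exonuclease, was at 2.72, 3.11 and 2.94 in CFUe and at -0.09, -0.16 and -0.36 in GMP (3.13), and the factor Irf7 differed by 2.38. The membrane protein Ifitm1 was higher in GMP (-2.14), with CFUe replicate 3 at 1.52 and the other CFUe arrays at -0.58 and -0.39. The organic anion carrier Slco4a1 (-8.18) was above background on 1 CFUe array and all GMP arrays.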
